A study of Mus musculus with 3 samples.

Results

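CpG islands in dense island neighbourhoods were taken from a mouse CpG island array as runs of probes that lay close together and had several other such runs nearby. Probes on the 19 autosomes were sorted by start and joined while the next start lay within 500 bp, and a run of 3 or more probes was a region. A region was a member when it held 3 to 11 probes and 4 or more other regions started within 50 kb of its own start. The regions in 4 gene-cluster intervals, on chromosomes 6, 11, 15 and 2, were left out. This gave 2110 members of 13729 autosomal regions, and 2043 members were measured, meaning that at least 3 probes passed the spot filters on all 3 arrays. The other 67 members have no value here. The rule used positions only and no signal.

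The samples were epithelial cells of the colon from male BALB/c mice, and the array measured H3K27me3, trimethylated lysine 27 of histone H3. The 3 groups were untreated mice of 7 weeks, untreated mice of 23 weeks, and mice of 23 weeks that had received 2% dextran sulfate sodium (DSS, a polymer that injures the colonic epithelium and causes colitis) for one week from the age of 7 weeks. Each group was 1 array hybridised with chromatin pooled from 3 mice. Cells came from isolated crypts, were cross-linked with formaldehyde and sonicated, and immunoprecipitated DNA (IP, Cy5) was hybridised against whole-cell extract (input, Cy3). The crypt fraction was not checked against cell type markers, because the array measures chromatin at CpG islands and its files carry no gene names.

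CpG islands are stretches of CpG-rich DNA, most of them unmethylated and many at gene starts. Polycomb repressive complex 2 writes H3K27me3, and in mammals it is found mainly at CpG islands of genes that are not being transcribed, such as developmental regulators. Once present, the mark can be bound by the same complex, and it often forms domains that cover several neighbouring islands. Gene-rich stretches of chromosome hold many islands close together, and islands of broadly expressed genes usually lack the mark.

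The value of a region was the median over its probes of log2(IP/input), after each array's probe median had been set to 0. A region was called marked at a value of 1 or more, meaning 2-fold above the median probe of its array. With 1 array a group there is no replicate error, so no p-value is given for any difference between groups. A ± after a region's value is the SD over its probes in 1 hybridisation, and intervals of shares are 95% Wilson intervals that cover counting error only. These intervals take regions as independent, although close neighbours had similar values, so they may be too narrow. Each array had its own slide and scan, so group, slide and scan cannot be told apart. The arrays also differed in the spread of their ratios: the interquartile range over probes was 1.81 log2 units for untreated 7 weeks, 2.37 for untreated 23 weeks and 1.42 for DSS. Differences are therefore given also after each array had been scaled to the mean of the 3 interquartile ranges, called scaled values below. Median processed intensities per array lay between 738 and 840 in the IP channel and between 620 and 773 in the input channel.

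Members were short regions with close neighbours. Their median length was 560 bp, with 90% of them between 290 and 1172 bp, and their median number of probes was 5. The start of the nearest other region lay a median of 6340 bp away, and the median member had 5 others within 50 kb, with a maximum of 12. Isolated regions, which met the other criteria but had no other region within 50 kb, numbered 3968 (3871 measured) and had a median of 6 probes and 690 bp. Regions with 1 to 3 others numbered 6322 (6101 measured). Probe filters removed 6.51% of the probes of members and 6.9% of those of isolated regions. Members were unevenly spread over chromosomes. They made up 32.2% of such regions on chromosome 17, 29.5% on chromosome 7 and 25.6% on chromosome 10, but 5.54% on chromosomes 1 and 12.

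Most members carried no H3K27me3 enrichment, and a minority carried a strong one. The median over members was -0.25 in untreated 7-week cells, -0.36 in untreated 23-week cells and -0.22 after DSS, beside -0.26, -0.41 and -0.20 over all autosomal regions. At 7 weeks 498 members (24.4%, 22.6 to 26.3) were marked, beside 19.2% of all regions. At 23 weeks 584 members (28.6%, 26.7 to 30.6) were marked, beside 24.3% of all regions. After DSS 354 members (17.3%, 15.7 to 19) were marked, beside 12.6% of all regions. The members' shares were thus above the background share on each of the 3 arrays. On scaled values the members' shares were 25.2%, 25.6% and 23.7%, beside 19.8%, 20.5% and 18.4% of all regions, and the 3 arrays lay closer to one another. Members at -1 or below, depleted by 2-fold or more, made up 20.8%, 30.2% and 16.2% in the same order. Over all regions these shares were close to that, 19.9%, 30.3% and 14.1%. The values of members ranged more widely than their median shows, from a 5th percentile of -1.70 to a 95th of 2.17 at 7 weeks.

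Isolated regions were marked less often than members. Their shares were 15.4% (14.3 to 16.5) at 7 weeks, 22.1% (20.9 to 23.5) at 23 and 8.24% (7.42 to 9.15) after DSS, lower than those of members by 9.01, 6.45 and 9.09 percentage points. None of these intervals overlapped that of the members on the same array. On scaled values the isolated shares were 16.1%, 17% and 14.1%. The median level did not follow the share: it was -0.22 in isolated regions and -0.25 in members at 7 weeks. The excess lay in the upper end of the members' values. Median input signal, on the log2 scale relative to its array's median, was 0.05 in members and 0.06 in isolated regions at 7 weeks, 0.10 and 0.01 at 23, and 0.07 and 0.04 after DSS. The excess was present at each number of probes. Among regions of 3 or 4 probes 26.5% of members and 14.6% of isolated regions were marked at 7 weeks, and among those of 7 to 11 probes 23% and 16.4%. At 23 weeks the shares among those of 7 to 11 probes were 26.3% (22.9 to 30) and 22.2% (20.3 to 24.2), and these intervals overlapped.

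The share did not climb steadily with the number of neighbours. Just outside the rule, the 1182 measured regions with 3 others were marked in 17.9%, 22.3% and 12.2% of cases at 7 weeks, at 23 and after DSS. Just inside it, the 807 with 4 others were marked in 26.6%, 31.4% and 20.9%. With 5 others the shares fell back to 20.9%, 23.9% and 13.2% (469 members), and with 7 others they were 28%, 30.4% and 18.6% (161 members). The plot of marked share by spacing shows this step beside a steadier gradient with distance.

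**Figure D1:**
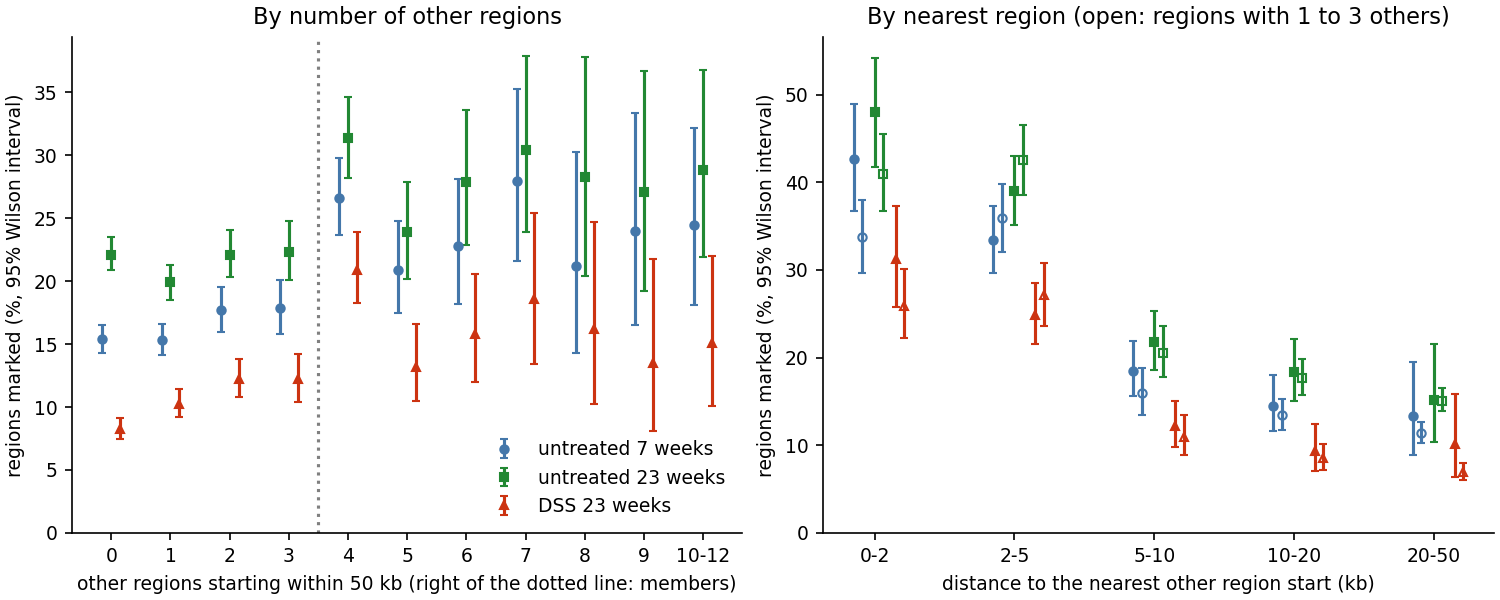
Share of regions marked (percent, bars are 95% Wilson intervals) on the 3 arrays. Left, by the number of other regions starting within 50 kb, with members to the right of the dotted line: the share after DSS is 12.2% at 3 others and 20.9% at 4. Right, by distance to the nearest other region start in kb, for members (filled) and regions with 1 to 3 others (open): at 7 weeks members fall from 42.7% within 2 kb to 13.3% beyond 20 kb, and the others from 33.7% to 11.4%.

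The distance to the nearest region separated marked from unmarked members more clearly than the number of neighbours did. Of members with another region starting within 2 kb, 42.7% were marked at 7 weeks, 48% at 23 and 31.3% after DSS (246 members). From 2 to 5 kb the shares were 33.4%, 39% and 24.9% (587 members), and from 5 to 10 kb they were 18.5%, 21.8% and 12.2% (583 members). From 10 to 20 kb they were 14.5%, 18.3% and 9.38% (469 members), and beyond 20 kb 13.3%, 15.2% and 10.1% (158 members). The sharpest drop on each array was at about 5 kb.

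Regions with 1 to 3 others were also marked less often beyond 5 kb, but their share at 7 weeks was 33.7% within 2 kb and 35.9% from 2 to 5 kb, where that of members was lower in the second interval. Beyond 20 kb they were marked in 11.4%, below the 15.4% of isolated regions. Split at 5 kb, close members (833 measured) were marked in 36.1% at 7 weeks, 41.7% at 23 and 26.8% after DSS. Close regions of the rest (1069 measured) were marked in 34.9%, 41.8% and 26.6%, so at close spacing the counting intervals of members and others overlapped on all 3 arrays. Members with no region within 5 kb (1210 measured) were marked in 16.3%, 19.6% and 10.8%. The other regions with none within 5 kb (8903 measured) were marked in 13.8%, 19% and 8.09%. The intervals of these distant groups overlapped on both untreated arrays. After DSS those on centred values, 9.2 to 12.7 and 7.54 to 8.67, did not overlap. On scaled values after DSS they met, at 13.8 to 17.9 and 12.4 to 13.8.

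The members fell into 385 neighbourhoods, runs in which each start lay within 50 kb of the previous one. The median neighbourhood had 4 members, 66 had 1, and 49 had 10 or more, which together held 760 members. Marking was most frequent in small to middle-sized neighbourhoods and became rarer in long ones. In neighbourhoods of 3 to 5 members 31.7% of members were marked at 7 weeks, 37.3% at 23 and 25% after DSS. In those of 6 to 9 members the shares were 25.4%, 30.6% and 17.8%, in those of 10 to 19 they were 20.4%, 23.2% and 13%, and in those of 20 or more they were 16%, 18% and 8.61%. In neighbourhoods of 1 or 2 members, where only 16.7% had a region within 5 kb, the shares were 17.4%, 20.5% and 12.9%. From 3 members upward the proportion with a region within 5 kb was nearly constant, from 41% to 44.7% while the share marked declined.

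When the gradients were crossed, that with spacing held, while that with size was clear only among closely spaced members. Among members with a region within 5 kb, 48.7% were marked at 7 weeks in neighbourhoods of 1 to 5 members, 35.5% in those of 6 to 9 and 26.1% in those of 10 or more. After DSS the same 3 shares were 40.1%, 26% and 16.1%. Among members with none within 5 kb they were 17.8%, 17.8% and 13.5% at 7 weeks and 12.9%, 11.5% and 8.04% after DSS. In these members the counting intervals of the smallest and the largest neighbourhoods overlapped on all 3 arrays. Closely spaced members had the higher share at every size of neighbourhood on the arrays shown, and the fall with size was largest among closely spaced members.

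**Figure D2:**
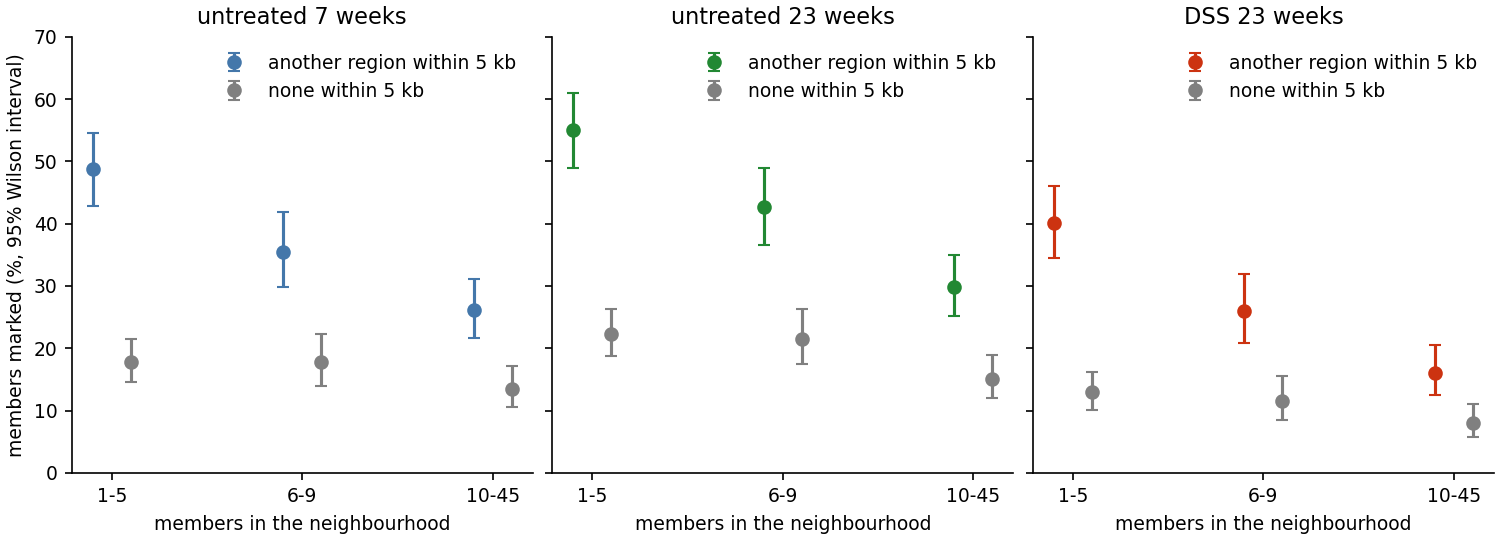
Share of members marked (percent, bars are 95% Wilson intervals) by the number of members in the neighbourhood, 1 panel per array; coloured points have another region starting within 5 kb and grey points have none. At 23 weeks closely spaced members fall from 55% to 29.8% between the smallest and the largest neighbourhoods, while the others fall from 22.3% to 15.1%.

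Neighbouring members resembled each other over short distances. Over all 1657 next-neighbour pairs, a median of 10145 bp apart, Pearson's r between the 2 values was 0.46 at 7 weeks, 0.48 at 23 and 0.44 after DSS. These correlations are across regions of 1 array, consecutive pairs share a member, and regions are not independent replicates. Within 2 kb (117 pairs) r was 0.77, 0.85 and 0.75. It was 0.66, 0.71 and 0.65 from 2 to 5 kb (321 pairs), 0.52, 0.55 and 0.50 from 5 to 10 kb (382 pairs), 0.25, 0.26 and 0.24 from 10 to 20 kb (458 pairs), and 0.17, 0.16 and 0.16 beyond that (379 pairs). At 23 weeks 94% of the pairs within 2 kb were in the same state, both marked or both unmarked, and the partner of a marked member was marked in 94.2% of cases. At 7 weeks these shares were 84.6% and 83.3%, and after DSS 76.9% and 65.8%. On scaled values they were 85.5% and 84.4% at 7 weeks, 92.3% and 91.9% at 23. After DSS the scaled shares were 84.6% and 82.4%, near those at 7 weeks. From 20 to 50 kb the partner of a marked member was marked in 28.3% at 7 weeks, 35.3% at 23 and 14.8% after DSS. On scaled values these shares were 31.8%, 31.1% and 33.9%. In pairs of other regions r at 7 weeks was 0.69 within 2 kb (222 pairs), 0.74 from 2 to 5 kb (277 pairs) and 0.17 from 20 to 50 kb (1878 pairs).

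**Figure D3:**
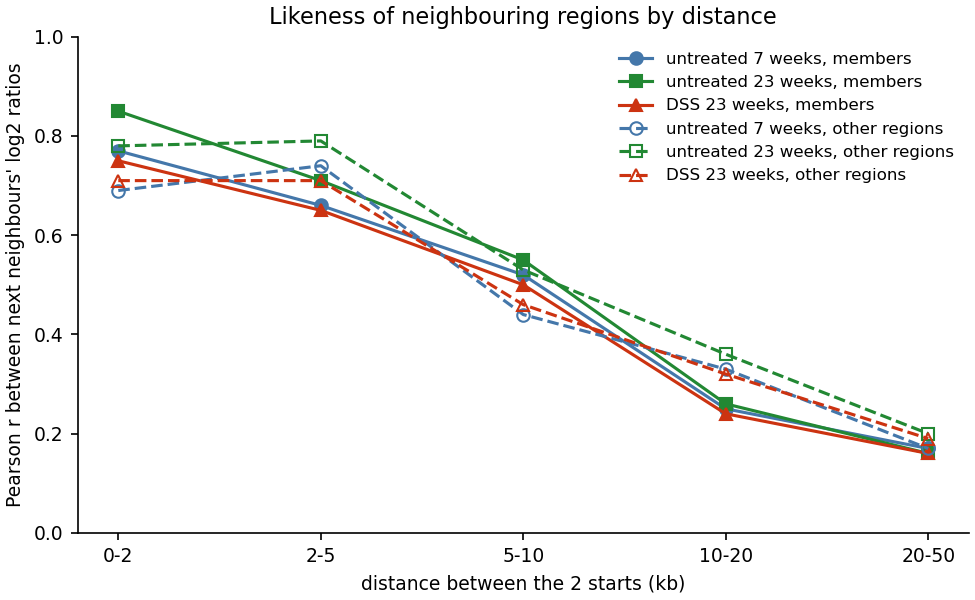
Pearson r between the log2 ratios of next-neighbour regions, by the distance between their starts in kb, for members (solid lines, filled) and other regions (dashed, open) on each array. All 6 lines start at 0.69 or above within 2 kb and lie at 0.20 or below from 20 to 50 kb.

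A sharp step between close neighbours was rare. Of the 117 pairs within 2 kb, 1 had a member marked and the other at or below 0 on all 3 arrays. It lay on chromosome 4, where the starts were 724 bp apart. The region at chr4:152985314-152985581 had 2.78 ± 0.71 at 7 weeks, 2.90 ± 0.54 at 23 and 1.94 ± 0.46 after DSS over its 4 probes. Its neighbour at chr4:152986038-152986343 had -0.15 ± 0.48, -0.30 ± 0.19 and -0.48 ± 0.19 over 3 probes. The enriched region was higher than its neighbour by more than the SD of the probes of either on each array.

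Many neighbourhoods held both marked and unmarked members. Of the 279 neighbourhoods with at least 3 measured members, 16 had all members marked at 7 weeks, 112 had none and 151 were mixed. At 23 weeks the counts were 27, 94 and 158, and after DSS 6, 138 and 135. These counts are on centred values. All members were marked on all 3 arrays in 5 neighbourhoods, and 92 had no marked member on any array. Neighbourhood membership accounted for 44.3%, 44.7% and 44.8% of the variance of member values at 7 weeks, 23 weeks and after DSS, a figure that includes the small neighbourhoods. In neighbourhoods of 5 or more measured members it was 37.6%, 37.6% and 38.3%. With 385 neighbourhoods for 2043 members, part of such a share arises even without likeness among neighbours. How large that part is was not computed.

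The neighbourhood with most members marked on all 3 arrays was on chromosome 19, at chr19:44727856-44812736, with 9 members over 84.9 kb. Its members had a median of 1.90 at 7 weeks (0.95 to 2.29), 2.23 at 23 (1.39 to 2.77) and 1.57 after DSS (1.16 to 2.09). All 9 were marked at 23 weeks and after DSS, and 8 at 7 weeks. The exception was the member at chr19:44779428-44779835, which had 0.95 at 7 weeks, 1.39 at 23 and 1.16 after DSS. No member of this neighbourhood fell below a value of 0.95 on any array.

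The highest medians at 7 weeks belonged to 3 compact neighbourhoods of 5 members. The first, at chr2:38161453-38179156, had a median of 2.55 at 7 weeks, 2.66 at 23 and 1.85 after DSS. All 5 of its members were marked on the untreated arrays and 3 after DSS, or 5 after DSS on scaled values. Its last member, at chr2:38178630-38179156, had the highest values of any member in the named neighbourhoods, 3.27, 3.57 and 2.39. The second, at chr3:129191691-129211019, had medians of 2.31, 2.48 and 1.66, and the last, at chr5:120688331-120701149, had 2.23, 2.37 and 1.61. Every member of the neighbourhoods on chromosomes 3 and 5 was marked on all 3 arrays. These 3 neighbourhoods spanned 17.7, 19.3 and 12.8 kb.

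The lowest medians at 7 weeks came from neighbourhoods with almost all measured members below 0. At chr2:29870891-29994198 the 6 measured of 8 members had a median of -1.37 at 7 weeks, -1.56 at 23 and -1.18 after DSS, and none was marked. At chr19:4099819-4192917 the 6 measured of 7 members had -1.29, -1.66 and -1.07, and none was marked. At chr7:11821937-11954904 the median of the 12 members was -1.12, -1.37 and -0.88, but 2 members were marked at 7 and 23 weeks. Those were chr7:11828255-11828968, with 1.30, 1.94 and 0.51, and chr7:11943471-11944565, with 1.54, 1.89 and 0.90. Both stood more than 1 log2 unit above every other member of that neighbourhood on the untreated arrays.

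The largest neighbourhoods were mostly unmarked. The largest, at chr10:80417959-81004328, had 45 members (44 measured) over 586 kb, and its median was -0.26 at 7 weeks, -0.58 at 23 and -0.38 after DSS. It had 5 members marked at 7 weeks, 5 at 23 and 2 after DSS, or 5 on each array on scaled values. On centred values 39 of its members were marked on no array. Those marked on all 3 were chr10:80735526-80736390, with 2.26, 2.35 and 1.19, and chr10:80885459-80885980, with 1.88, 2.73 and 1.47. The lowest member, at chr10:80586037-80586363, had -2.63, -2.72 and -1.75. No member between chr10:80424923-80425551, with 1.13, 1.68 and 0.85, and chr10:80660420-80661030, with 1.44, 1.68 and 0.91, was marked on any array.

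The other neighbourhoods of the 4 with most members had similar medians but different marked members. At chr8:74390490-74654845 (31 members, 30 measured) the medians were -0.27, -0.29 and -0.24, with 4, 5 and 1 members marked, or 4, 4 and 3 on scaled values. At chr8:73526810-73835620 (28 members, 27 measured) they were -0.24, -0.70 and -0.52, with 4, 4 and 0 marked, or 4, 4 and 2 on scaled values. At chr10:79505362-79836675 (31 members, 30 measured) they were -0.08, -0.31 and -0.01, with 6, 7 and 6 marked on either scale. In this last one 4 of the 6 members marked on all 3 arrays lay side by side, from the member at chr10:79707835-79708202, with 1.45, 2.03 and 1.16, to the member at chr10:79718088-79718698, with 1.79, 2.01 and 1.18. The next member, at chr10:79723271-79723644, had -0.50, -0.69 and -0.78. A run of enriched islands thus ended within a few kb.

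The most crowded surroundings, 12 other regions within 50 kb, were shared by 18 members in 6 neighbourhoods, of which 16 were measured. Of these 5 were marked at 7 weeks, 5 at 23 and 3 after DSS. The naming rule asks for 4 and does not settle the tie, so these examples were chosen after their values were seen. A run of 4 enriched members lay on chromosome 8, from chr8:73416114-73416544, with 1.47, 1.78 and 1.06, to chr8:73422240-73423320, with 1.68, 2.14 and 1.16, and the highest of them, at chr8:73418351-73418996, had 2.26, 2.62 and 1.49. In contrast, the member at chr10:79567662-79568059 had -0.40 ± 0.60, -1.73 ± 0.49 and -0.26 ± 0.57, and that at chr7:18478354-18478883 had -1.38, -1.32 and -1.40. The most crowded members thus included enriched and depleted ones.

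Some neighbourhoods held an enriched and an unmarked part. At chr11:115065976-115308015 the 16 members had a median of 1.00 at 7 weeks, 1.67 at 23 and 0.79 after DSS. Of these members 8, 9 and 6 were marked, or 8, 9 and 8 on scaled values. All 9 members that were marked on any array came first along the chromosome, with 7-week values from 0.83 to 2.73, and the 7 that followed had values from -1.11 to -0.23. The change of state came between the members at chr11:115150602-115151022, with 1.96, 2.25 and 1.64, and chr11:115183060-115183996, with -0.48, -0.86 and -0.39. At chr10:126433433-126715051 (19 members, 18 measured) the medians were 1.04, 1.63 and 0.76, with 10, 10 and 7 marked, or 10, 10 and 9 on scaled values. Here, however, enriched and unmarked members were interleaved. The members at chr10:126484381-126484735, with 2.13, 2.54 and 1.62, and chr10:126466568-126466898, with -1.70, -1.20 and -1.24, belonged to the same stretch.

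The remaining neighbourhoods nearest an even split at 7 weeks were at chr7:27038127-27196380 (16 members), chr1:75333530-75405205 (10 members) and chr5:143534563-143669520 (10 members). Their medians at 7 weeks, at 23 and after DSS were 1.00, 1.38 and 0.64 in the first, 0.88, 1.49 and 0.56 in the second, and 1.03, 1.41 and 0.70 in the third. After DSS 2 of 16, 4 of 10 and 4 of 10 members were at 1 or above. On scaled values 7, 5 and 5 were, beside 8, 6 and 5 at 23 weeks. In the chromosome 1 neighbourhood the member at chr1:75369749-75370145 had 3.03, 3.08 and 2.14 while the last one, at chr1:75404581-75405205, had -1.76, -1.90 and -1.82. The plot of values along neighbourhoods shows 6 of the named ones.

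**Figure D4:**
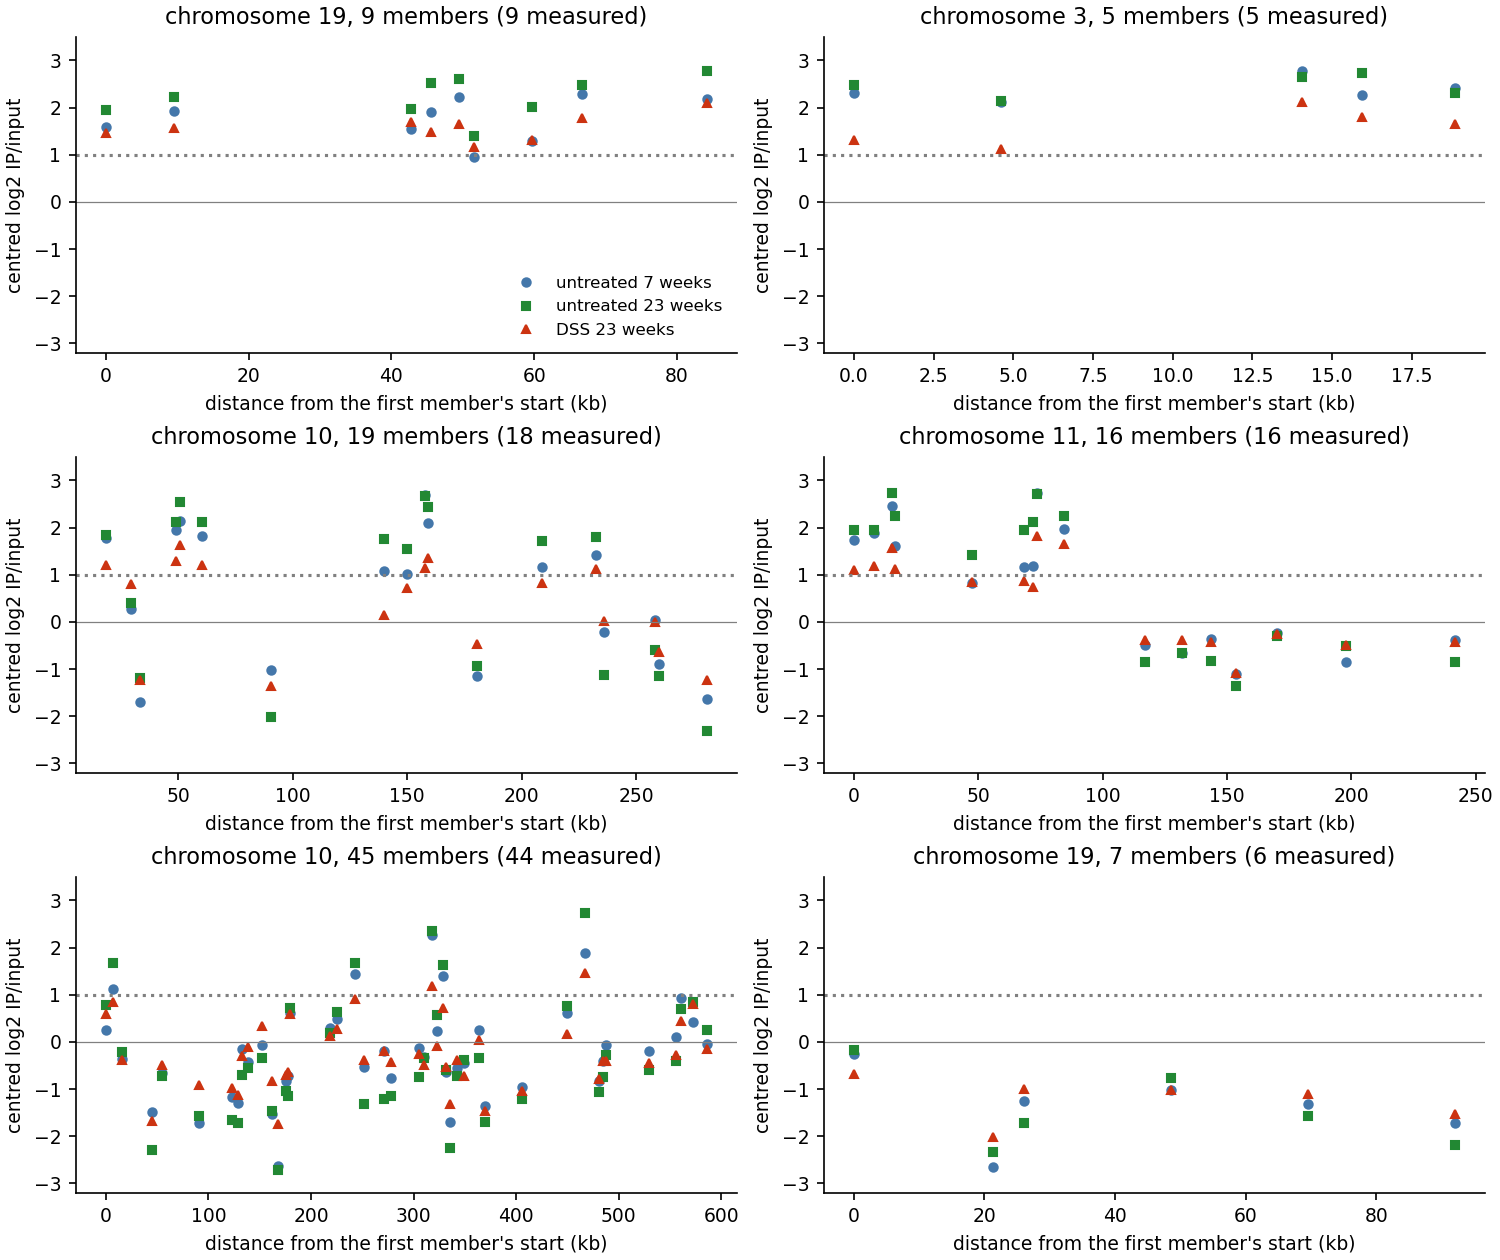
Centred log2 IP/input of each measured member (points, 3 arrays by colour and shape) by distance in kb from the first member's start, in 6 named neighbourhoods; the dotted line is the value 1 above which a region is marked. The chromosome 19 neighbourhood with 9 members and the chromosome 3 one are enriched throughout. The chromosome 11 one switches from enriched members to members below 0, and the chromosome 10 one with 45 members is mostly below 1.

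By chromosome, the members of chromosomes 13 and 1 were marked most often. On chromosome 13, 27 of 40 measured members (67.5%) were marked at 7 weeks, 77.5% at 23 and 55% after DSS. On chromosome 1, 24 of 40 (60%) were marked at 7 weeks, 67.5% at 23 and 45% after DSS. On chromosome 16 the share at 7 weeks was 40.6%, on chromosome 15 it was 16.3%, and on chromosome 14 it was 6.9% (2 of 29). Chromosomes with few members hold few neighbourhoods, 11 on chromosome 13 and 8 on each of chromosomes 1 and 14, so these shares rest on few separate stretches.

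The set of marked members was largely shared between arrays. Of 2043 members, 1454 (71.2%) were marked on no array and 344 (16.8%) on all 3, beside 75.4% and 12.1% of all regions. Of the 498 marked at 7 weeks, 494 (99.2%) carried the mark at 23 weeks too, which is 84.6% of the 584 marked at 23 weeks. Over all regions these shares were 98.6% and 77.8%. Of the 584 members, 353 (60.4%) were marked after DSS, which is 99.7% of the 354 marked after DSS, beside 99.2% over all regions. Marked on the 23-week untreated array alone were 81 members, 150 on both untreated arrays but not after DSS, and 1 after DSS alone. These were 3.96%, 7.34% and 0.0489% of members, beside 5.01%, 6.76% and 0.0824% of all regions. In isolated regions 36.5% of those marked at 23 weeks were also marked after DSS, and over all regions 51.5%. On scaled values 445 members (21.8%) were marked on all 3 arrays, beside 16.2% of all regions. Of those marked at 23 weeks on scaled values, 87.8% of members, 73.4% of isolated and 82.8% of all regions were also marked after DSS.

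Comparing untreated cells of 23 with those of 7 weeks asks what changes with age. A region was called gained when the median over its probes of the difference was 1 or more and the later value was 1 or more, and lost when that difference was -1 or less and the earlier value was 1 or more. No member was gained and 1 was lost, beside 0.0375% of all regions gained and 0.0075% lost. The median difference over members was 0.01, beside -0.01 over all regions. Members marked on either array had a median difference of 0.30, and those below 0 on both had -0.17, so values lay further from 0 at 23 weeks on either side. On scaled values the median of the marked was -0.16, the opposite sign, with no member gained and 3 lost, beside 0% and 0.0974% of all regions.

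The member lost with age was at chr2:56926962-56927566, with 3 probes. It had 2.05 ± 0.62 at 7 weeks, 0.91 ± 0.36 at 23 and 0.02 ± 0.16 after DSS. The difference between the untreated arrays was -1.04 ± 0.29, downward in 3 of 3 probes, and -1.39 on scaled values. The 3 arrays fell in the order 7 weeks, 23 weeks, DSS, and the difference between DSS and 7 weeks was -2.03. It was just past the threshold: with the mean over probes in place of the median the difference was -0.93. The other members lost with age on scaled values were chr2:84689813-84690089, with centred values of 3.29, 2.92 and 2.17, and chr4:140697805-140698144, with 3.05, 2.29 and 2.16. Both were among the strongly enriched members on every array.

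Comparing DSS-treated with untreated cells of 23 weeks asks what a past colitis leaves behind. No member was gained and 61 (2.99%) were lost, beside 0.0075% of all regions gained and 2.12% lost. As a share of those marked at 23 weeks, 10.4% of members, 8.74% of all regions and 10.6% of isolated regions were lost. The members' share of the marked was therefore near that of isolated regions. The median difference over members was -0.01, beside 0.05 over all regions, and among members marked on either array it was -0.72. Of the 584 members marked at 23 weeks, 581 were lower after DSS. On scaled values 276 of the 584 were lower and the median among the marked was 0.05. There 1 member was gained and 3 were lost, beside 0.105% and 0.12% of all regions. Scaling also removes any loss shared by the marked regions of a whole array. With 1 array per group, such a loss and a narrower range of the DSS array cannot be told apart.

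**Figure D5:**
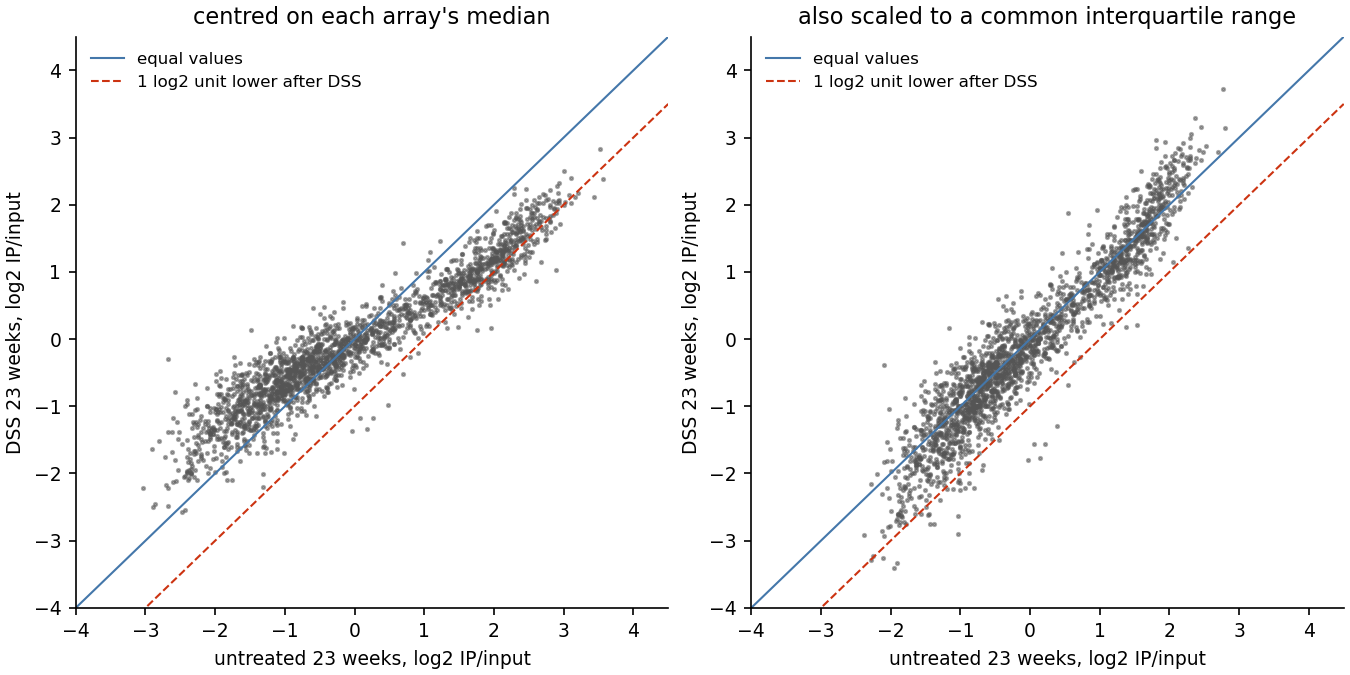
Log2 IP/input of each measured member after DSS (vertical) against untreated at 23 weeks (horizontal), with the line of equal values and the line 1 log2 unit lower; left, arrays centred on their median, right, also scaled to a common interquartile range. On the left, 581 of the 584 members at 1 or above on the untreated array lie below the line of equal values; on the right, 276 do.

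The members lost after DSS were spread over many neighbourhoods. The 61 lay in 50 neighbourhoods, of which 9 held more than 1 and the fullest held 4. Of the 584 members marked at 23 weeks 347 had another region starting within 5 kb, and of the 61 lost members 37 had. Their median was 1.67 at 7 weeks, 2.14 at 23 and 1.08 after DSS, and 34 of them were still marked after DSS. Their median difference was -1.09, and -0.25 on scaled values. Their IP signal had a median difference of -1.13 and their input 0.02 ± 0.51 (SD over the 61), which is a description, since they were chosen by the ratio of the 2. Over all 584 members marked at 23 weeks the medians were -0.94 for the IP and -0.12 for the input.

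The 3 members lost on centred and on scaled values alike had values near 0 after DSS. The largest loss of these 3 was at chr10:126573491-126574244, with 1.07 ± 0.83 at 7 weeks, 1.75 ± 0.72 at 23 and 0.14 ± 0.58 after DSS. Its difference was -1.75 ± 0.29, downward in 8 of 8 probes, and -1.26 on scaled values. The next was at chr5:135326499-135326931, with 1.71 ± 0.45, 1.95 ± 0.61 and 0.16 ± 0.36. Its difference was -1.72 ± 0.42, downward in 5 of 5 probes, and -1.15 on scaled values. The member at chr1:75365736-75366141 had 0.72 ± 0.35, 1.32 ± 0.41 and 0.17 ± 0.29, a difference of -1.31 ± 0.26 in 4 of 4 probes and -1.01 on scaled values. Each of these was lower after DSS than at 23 weeks by more than the SD of its probes.

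The others of the 6 largest losses by the naming rule, which asks for 4 or more kept probes, depended more on the scale. Outside that rule the member at chr11:69376370-69376566, with 3 probes, had a larger difference, -1.91, and -0.87 on scaled values. At chr5:135307927-135308655, in the same neighbourhood as the chromosome 5 member above, the values were 1.67 ± 0.55, 2.06 ± 0.39 and 0.60 ± 0.37, with a difference of -1.34 ± 0.14 in 7 of 7 probes and -0.76 on scaled values. At chr13:22013259-22014685 they were 1.99 ± 1.12, 1.40 ± 0.81 and 0.44 ± 0.68, with -1.27 ± 0.47 in 9 of 9 probes and -0.55 on scaled values. At chr7:45044102-45044703 they were 3.09 ± 1.19, 3.44 ± 1.28 and 2.12 ± 1.17, with -1.25 ± 0.67 in 4 of 4 probes. On scaled values this last difference was 0.18, the opposite sign, and the region was marked on all 3 arrays. The member gained on scaled values, at chr14:54807927-54808453, had centred values of 0.52, 0.70 and 1.43, and its scaled difference from untreated 23 weeks was 1.31.

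DSS-treated cells of 23 weeks compared with untreated cells of 7 weeks share the treated array with the preceding comparison, and age and treatment cannot be told apart in it. No member was gained and 17 (0.832%) were lost, beside 0.0075% of all regions gained and 0.547% lost. Of the 17, 11 were also lost against untreated 23 weeks. The median difference over members was -0.05, and -0.46 among those marked on either array. On scaled values 1 member was gained and 4 were lost, beside 0.0899% and 0.255% of all regions. The largest difference by the naming rule was at chr13:22013259-22014685, -1.36 ± 0.81 in 9 of 9 probes and -1.48 on scaled values.

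The next in size was at chr8:87595390-87596110, with 1.62 ± 1.19 at 7 weeks, 1.67 ± 1.03 at 23 and 0.73 ± 0.77 after DSS. Its difference was -1.21 ± 0.72 in 6 of 6 probes and -1.16 on scaled values. The other 4 were still at 0.77 or above after DSS. They were chr10:80735526-80736390 (2.26, 2.35 and 1.19, difference -1.16 ± 0.67), chr15:78740916-78741947 (1.48, 1.37 and 0.77, difference -1.15 ± 0.69), chr7:79408738-79409894 (2.25, 2.39 and 1.52, difference -1.14 ± 0.49) and chr7:28880046-28880693 (2.11, 2.09 and 1.17, difference -1.06 ± 0.48). Their scaled differences lay between -0.89 and -0.57, past no threshold. The other members lost on scaled values were chr2:56926962-56927566, described above, and chr11:69376370-69376566, with 2.32, 2.89 and 1.03.

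Differences were also alike between close neighbours. For DSS against untreated 23 weeks, r between the differences of next-neighbour members was 0.80 within 2 kb, 0.59 from 2 to 5 kb, 0.52 from 5 to 10 kb, 0.24 from 10 to 20 kb and 0.12 from 20 to 50 kb. Differences followed the level of the region on these arrays, and the part of the levels in this likeness was not tested. Binned by their 7-week value, which is not part of this difference, members at 2 or above differed by a median of -0.77, members from 0 to 0.5 by -0.12, and members below -1 by 0.39. On scaled values the medians of these bins were 0.29, -0.05 and -0.27, so the sign turned in the highest and the lowest bin.

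A neighbourhood of low level was singled out after its values were seen, as the one with the lowest median scaled difference. It lies at chr8:46508654-46550419 with 6 measured members, none of them marked on any array. All 6 were higher at 23 than at 7 weeks and lower after DSS than on either untreated array. The member at chr8:46535760-46536227 had -0.30 at 7 weeks, 0.48 at 23 and -0.98 after DSS. The member at chr8:46550112-46550419 had -0.42, 0.18 and -1.34, and that at chr8:46524387-46524819 had -0.83, -0.04 and -1.37. The median over the 6 of the difference between DSS and untreated 23 weeks was -1.34 (-1.43 to -0.02), and -1.67 (-2.05 to -0.94) on scaled values. Among the 233 neighbourhoods with at least 4 measured members the next lowest scaled median was -0.56. In this neighbourhood the IP signal of the chr8:46550112-46550419 member, on the log2 scale relative to its array's median, was -0.39, 1.11 and -1.11, and its input was 0.09, 0.70 and 0.03.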

How the data were processed

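Spot intensities in the deposited scanner output came from Agilent Feature Extraction (10.7.3.1 in the file headers, 9.1 per the submitters' processing notes). Processed intensities were background-subtracted and linearly dye-normalised, per the file headers, and the deposited log10 ratio matched them at 100% of probes on each array. A deposited table of linear ratios was used as an alternative: its direction was that of IP over input (r of log2 values 0.78 to 0.83), and its scaling is unknown. Positions are those of the file headers' probe names, with no stated genome build. Of 97159 positioned probes, 94499 of them autosomal, 90591 were kept after flagged spots and spots not well above background had been left out. The log2 ratios were computed from the deposited processed intensities with pandas 2.3.3, centred on the array median and summarised as a median per region. The procedure was tested on simulated data. Alternatives were scaling to a common interquartile range, normexp (limma 3.58.1, offset 50), no filter on dim spots, the deposited ratios, a mean over probes, and 6 or more others within 50 kb. A slide block was not possible.

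The members and lists were chosen with earlier results of these data known. Named were the 4 neighbourhoods with most members, the 4 with most members marked on all 3 arrays, the 3 highest and 3 lowest 7-week medians (5 or more measured members), and the 4 nearest 50% marked at 7 weeks (6 or more measured). Also named were the 6 largest gains and losses per comparison (4 or more kept probes, 80% one way) with counts of 5 or fewer in full, the 4 members with most others (tied, so given by their count and by examples), and sharp-step pairs within 2 kb. Regions on chromosome 18 were counted but not named.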

Additional observations from a re-analysis of the deposited data

How the results depend on the processing

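Of 108 alternative values of the shares, counts, medians and correlations, 73 stayed within their error or 1.5 times the count, and 35 moved. Scaling to a common interquartile range gave 3 members lost with age, 1 gained and 3 lost for DSS against untreated 23 weeks, and 1 gained and 4 lost against 7 weeks, with median differences of -0.074 and -0.105 in the last 2 comparisons. Multiplying an array by a constant cannot change its correlations, so scaling is no check of those. Normexp gave 7 losses for DSS against 23 weeks, median differences of 0.041 with age and 0.016 for DSS against 7 weeks, an excess of members over isolated regions of 9.43 percentage points at 23 weeks, and a next-neighbour r of 0.48 after DSS. Without the filter on dim spots 1 member was gained and 0 were lost with age, 94 were lost for DSS against 23 weeks, and the median differences of these comparisons were 0.049 and -0.054. The deposited ratios gave 6 gains and 0 losses with age, 123 losses for DSS against 23 weeks, and medians of 0.063, -0.096 and -0.064 (age, DSS against 23 weeks, DSS against 7 weeks). The mean over probes gave 1 gain and 0 losses with age, medians of 0.041 for DSS against 23 weeks and -0.021 against 7 weeks, and a next-neighbour r of 0.49 after DSS. With 6 or more others, 767 measured members were left, of which 185, 219 and 123 were marked at 7 weeks, at 23 and after DSS; 0 were lost with age, 27 and 6 after DSS against 23 and 7 weeks, and the median against 7 weeks was -0.066. Fewer regions were tested there, and the cause of the other changes was not tested. The main medians were 0.008 with age, -0.011 for DSS against 23 weeks and -0.047 against 7 weeks, so the mean over probes turned the sign of the second and normexp that of the last. Of 65 alternative values of the named losses, 47 stayed past the threshold, 17 kept their direction without passing it, and 1 reversed, that of chr7:45044102-45044703, at 0.18 on scaled values.

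The number of arrays, 1 per group, limits every comparison between groups. No replicate block, slide block or left-out replicate was run. No paired analysis was possible because each group has 1 sample. Members near the threshold of 1 can change state with little change in value: after DSS 108 members lay from 0.8 to 1 and 100 from 1 to 1.2.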

Other observations

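Regions outside the rule gave these values. The 158 autosomal regions of over 11 probes with 4 or more others within 50 kb were marked in 36.7% at 7 weeks, 41.8% at 23 and 28.5% after DSS. The 18 regions of the X chromosome that met the other criteria were marked in 22.2%, 33.3% and 16.7%.

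After the neighbourhood on chromosome 8 described above, the lowest medians of whole neighbourhoods on scaled values between DSS and untreated 23 weeks were -0.56 at chr19:4099819-4192917 and -0.51 at chr2:29883853-29994198, where those on centred values were 0.22 and 0.25. The highest were 0.72 at chr11:57617612-57653508 (5 of 5 members higher), 0.65 at chr2:105460778-105483309 (4 of 4) and 0.53 at chr5:139793913-139806982 (5 of 5). On centred values the medians of these upward neighbourhoods were -0.27, -0.51 and -0.65, the opposite sign. The chromosome 8 neighbourhood kept its sign on both scales, and with age it had the highest scaled median, 0.69. Its centred median with age was 0.70, and that of chr12:112578052-112626150 was also 0.70. The choice of these neighbourhoods followed from their values, and no cause was tested.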
